A study of Saccharomyces cerevisiae with 6 samples.

Results

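The genes described here are 36 antioxidant genes of *Saccharomyces cerevisiae*, the enzymes of superoxide and peroxide removal, the thioredoxin and glutathione systems, and a pair of their regulators. Their probes were found by gene symbol in the annotation of the array, with no use of measured values, although the list itself was drawn up with earlier results of these data known. All 36 have a probe, among 6248 genes and unnamed probes of the array, and each of the 36 has a single probe.

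Respiration and other oxidations in the cell give superoxide, which superoxide dismutases turn into hydrogen peroxide. Catalases, cytochrome c peroxidase, peroxiredoxins and glutathione peroxidase-like enzymes then reduce the peroxide, and thioredoxin, glutaredoxin and glutathione return the oxidized thiols to their reduced state with electrons from NADPH. In yeast, the transcription factors Yap1p and Skn7p raise many of these genes when peroxide is present. In wine fermentation the cells meet oxygen mainly at the start, and later face ethanol and the lack of nutrients with little oxygen.

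RNA came from 3 cultures of wild type 59A and 3 cultures of 59A PDR8-S288c. 59A is a haploid MATa derivative of the industrial wine strain EC1118 with an inactive ho gene. 59A PDR8-S288c carries, in the 59A background, the allele of PDR8 from the laboratory strain S288c, with a loxP-kanMX4-loxP cassette in its terminator, so that effects of the allele and of the cassette cannot be told apart. How many clones were used is not given in the sources used here. PDR8 encodes a zinc-finger transcription factor linked to drug resistance. Both strains fermented SM425, a synthetic grape must with 425 mg/l of assimilable nitrogen at pH 3.3, under an airlock, and were sampled at 66 g/l of CO2 released, 70% of fermentation progress, in late stationary phase. A time course, an oxidant or air was not part of the comparison, which asks only whether the allele of PDR8 goes with a different expression of these genes late in fermentation.

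The signal is the deposited log2 intensity, on which 5.3 is the background level and 16 is saturation, and the median of an array was between 8.06 and 8.07. On the array of wild type replicate 3, 32.9% of the probes have no value. This array also stood apart in another way: over the 4190 genes and probes measured on all 6 arrays, it gave the highest or the lowest value in 58.2%. QDR2, a multidrug transporter gene, was higher in 59A PDR8-S288c (log2 ratio 2.22, SE 0.07, limma adjusted p = 1.41e-05), which sets the strains apart, and PDR8 itself, with 2 wild type cultures, was lower (-0.49, adjusted p = 0.0260). The 5 MATa markers had wild type means between 8.10 and 11.40, and the 3 measured MATalpha markers lay between 5.34 and 5.85, near background. The 9 low-oxygen genes lay between 7.37 and 15.79. The number of arrays limits the precision, and in a culture fewer cells with a transcript and less transcript per cell cannot be told apart.

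No antioxidant gene passed the test between the strains. At an adjusted p under 0.05 from limma, 0 of 36 were called, 0 in either direction, while 1.54% of all 6248 genes and probes were called, 0.512% as higher and 1.02% as lower in 59A PDR8-S288c. A share of 1.54% corresponds to 0.553 of 36 genes. The absence of calls among 36 genes is therefore close to the background and not a result about them. At an unadjusted p under 0.05, 5 of the 36 (13.9%) were found against 18.1% of all, which would be 6.51 of 36. Of these 5, GRX3, GTT2 and SKN7 had higher means in 59A PDR8-S288c (9.99% of all features) and GRX2 and MXR1 had lower means (8.10% of all features).

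The differences were small. Log2 ratios of 59A PDR8-S288c over wild type, also called log2 fold changes, ran from -0.37 for GRX2 to 0.25 for SKN7. Their median was -0.006, and it was 0.0065 over all features. The median size of the difference, regardless of sign, was 0.074 for the 36 genes and 0.069 for all features. A total of 17 genes had a value above 0 and 19 below 0 (47.2% above 0, and 53.0% for all features). In 35 of 36 genes the 95% interval of the difference stayed within 0.5 log2 units on either side of 0, as it did in 94.0% of all features, and GRX2 was the exception, with an interval down to -0.56. A difference above 0.5 log2 units thus lies outside the interval in those 35 genes. Which smaller differences also lie outside it depends on the gene. The interval ran from -0.10 to 0.09 in TRX3 and from -0.32 to 0.36 in AHP1. The smallest two-sided p of an exact permutation test is 0.1 for 3 cultures against 3 and also for 3 against 2, so the limma fit over all features carries the test.

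**Figure D1:**
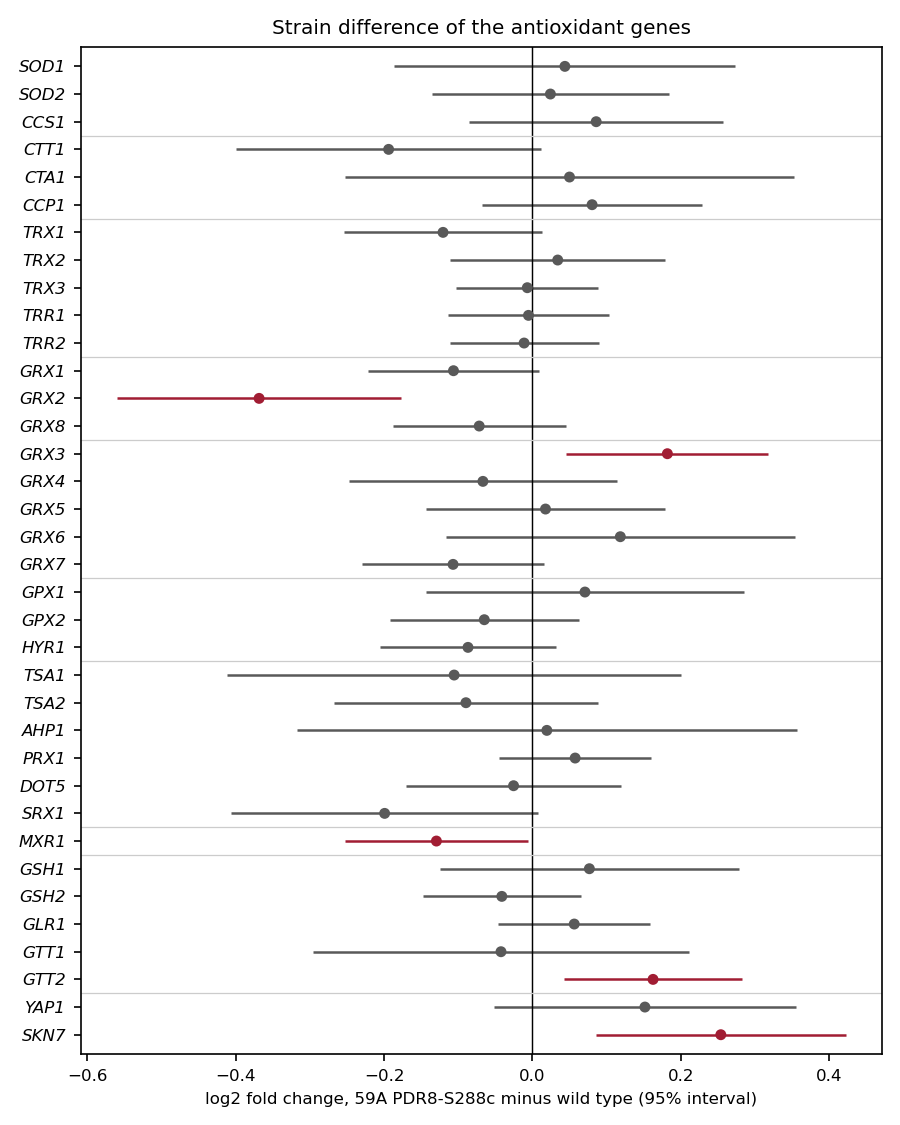
Log2 ratio (log2 fold change, 59A PDR8-S288c minus wild type) of the 36 antioxidant genes by role, with the 95% interval of the limma fit; red marks an unadjusted p under 0.05. The 36 values lie between -0.37 and 0.25, and GRX2 alone has an interval that passes -0.5.

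Of the 36 genes, 35 had a mean signal more than 1 log2 unit above background in at least 1 strain at this stage. GRX8 did not, nor did 16.1% of all features. The wild type means ran from 5.61 to 14.94. These levels describe the signal of each probe and set no gene against another. Over the 26 genes measured on all 6 arrays, the median signal was 10.27, 10.28 and 10.38 in replicates 1, 2 and 3 of the wild type against 10.21, 10.30 and 10.27 in those of 59A PDR8-S288c. Replicates of a strain differed by a median pooled SD of 0.084 log2 units in the 36 genes, from 0.025 to 0.235, and by 0.068 over all features.

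**Figure D2:**
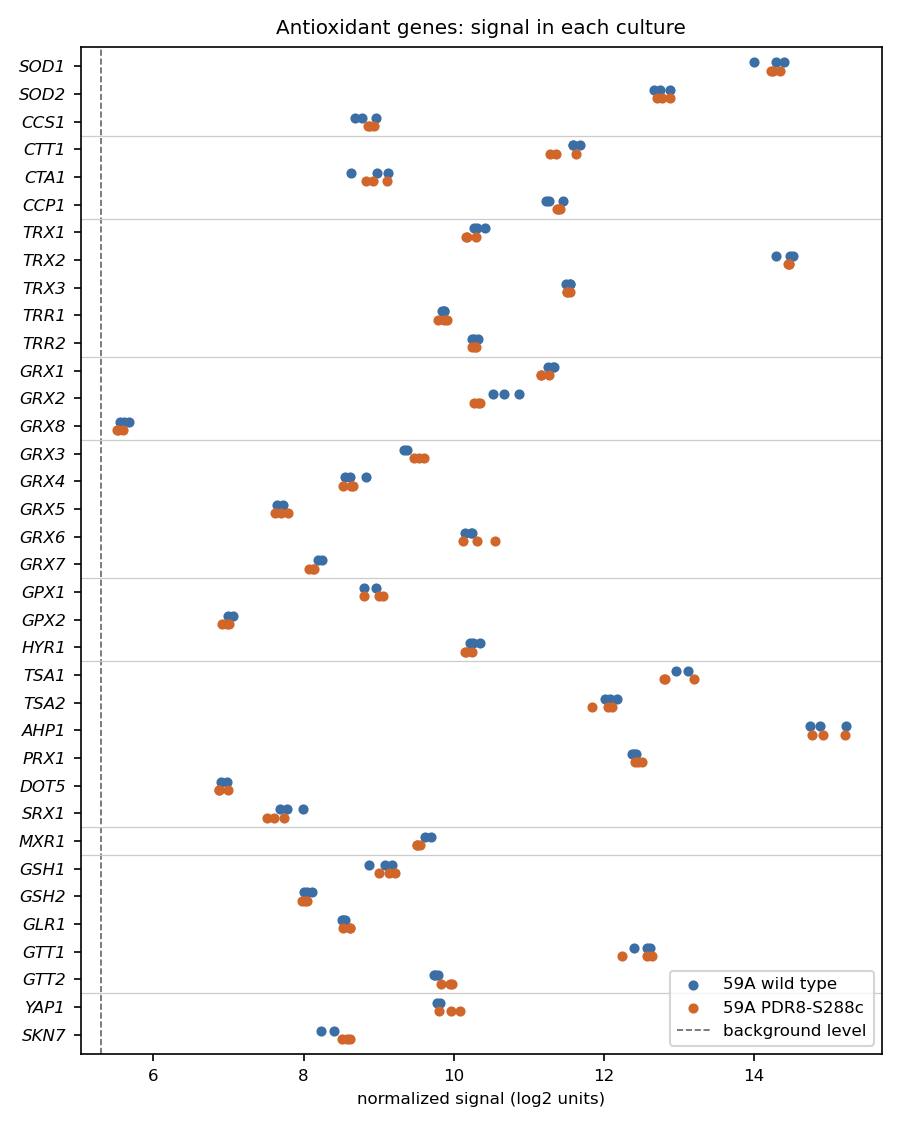
Deposited log2 signal of each antioxidant gene in each of the 6 cultures, grouped by role, with the background level of 5.3 as a line. GRX8 is the only gene whose means lie within 1 log2 unit of the line in both strains; levels of different genes come from different probes and are not compared.

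The genes of superoxide dismutation showed little difference in signal. SOD1, the cytosolic copper-zinc enzyme, had a log2 ratio of 0.04 (SE 0.10), and SOD2, the mitochondrial manganese enzyme, of 0.02 (SE 0.07). CCS1 encodes the chaperone that gives copper to Sod1p. It had the largest difference of these 3 genes, with 8.77, 8.97 and 8.68 in the wild type cultures against 8.86, 8.89 and 8.93 in 59A PDR8-S288c. The log2 ratio was 0.09 (SE 0.07, limma adjusted p = 0.579), and the cultures of the strains overlapped. It was 0.02 without wild type replicate 3 and 0.17 without wild type replicate 2. The values of SOD1 were 14.29, 14.40 and 14.00 in the wild type cultures against 14.34, 14.23 and 14.25 in 59A PDR8-S288c. The lowest of the 6 came from wild type replicate 3, and without that array the log2 ratio was -0.07.

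Among the catalases and cytochrome c peroxidase, CTT1, the cytosolic catalase that is a classic general stress gene, had 11.68, 11.59 and 11.58 in the wild type cultures against 11.63, 11.36 and 11.28 in 59A PDR8-S288c. A pair of the 59A PDR8-S288c cultures lay below all wild type cultures and the third, replicate 1, lay within their range. The log2 ratio was -0.19 (SE 0.09, 95% interval -0.40 to 0.01, limma adjusted p = 0.302). CTA1, the peroxisomal catalase, had the widest spread within a strain of all 36 genes. Its values were 8.97, 9.12 and 8.63 in the wild type, a range of 0.50, and 8.83, 8.93 and 9.12 in 59A PDR8-S288c. The log2 ratio was 0.05 (SE 0.13, 95% interval -0.25 to 0.35), and it was -0.09 without wild type replicate 3, the lowest of the 6. CCP1, the mitochondrial cytochrome c peroxidase, had 11.27, 11.22 and 11.45 against 11.39, 11.38 and 11.41, with a log2 ratio of 0.08 (SE 0.06, limma adjusted p = 0.549). Wild type replicate 3 was the highest and the other wild type cultures were the lowest of the 6, and without that array the log2 ratio was 0.15 (limma adjusted p = 0.139).

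The thioredoxin system had a median pooled SD between replicates of 0.044, the lowest of the role groups with more than 1 gene. Trx1p and Trx2p are the cytosolic thioredoxins, Trx3p is mitochondrial, and Trr1p and Trr2p are the cytosolic and mitochondrial reductases that feed them from NADPH. TRX1 had 10.27, 10.31 and 10.41 in the wild type cultures against 10.18, 10.29 and 10.16 in 59A PDR8-S288c, with a log2 ratio of -0.12 (SE 0.06, 95% interval -0.25 to 0.01, limma adjusted p = 0.319). A pair of its 59A PDR8-S288c cultures lay below the wild type, and replicate 2 lay inside the wild type range. Its paralogue TRX2 had 14.51, 14.48 and 14.30 against 14.47, 14.47 and 14.46 and a log2 ratio of 0.03 (SE 0.06). Wild type replicate 3 was the lowest of the 6, and the cultures of 59A PDR8-S288c were almost equal. TRX3, TRR1 and TRR2 each had a log2 ratio of -0.01, with an SE of 0.04, 0.05 and 0.04. The 3 wild type values of TRX3 were 11.54, 11.50 and 11.54, and those of 59A PDR8-S288c were 11.51, 11.51 and 11.55. TRR1, at 9.87, 9.84 and 9.87 against 9.91, 9.87 and 9.79, was as close between the strains.

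GRX2 had the largest difference of the 36 genes. It encodes a dithiol glutaredoxin, which uses glutathione to reduce disulfides, and is found in the cytosol and in mitochondria. The wild type cultures had 10.53, 10.66 and 10.86 and the 59A PDR8-S288c cultures had 10.35, 10.32 and 10.27. All 3 of the latter lay below all 3 of the former, with a gap of 0.173 log2 units between the nearest cultures. The mean was 1.29-fold lower in 59A PDR8-S288c (log2 ratio -0.37, SE 0.08, 95% interval -0.56 to -0.18), with an unadjusted p of 0.00235 and an adjusted p of 0.0740 from limma, so it did not pass. Wild type replicate 3 was the highest of the 6, and without it the log2 ratio was -0.28 (limma adjusted p = 0.0639). When limma weighted the arrays, which gave wild type replicate 3 a weight of 0.295 and the others 0.847 to 1.6, the value was -0.31 and it passed at an adjusted p of 0.0451. Over all alternatives the adjusted p of GRX2 ran from 0.0451 to 0.541. Its paralogue GRX1 had a log2 ratio of -0.11 (SE 0.05, 95% interval -0.22 to 0.01, limma adjusted p = 0.310), from 11.26, 11.32 and 11.34 in the wild type cultures against 11.16, 11.16 and 11.27 in 59A PDR8-S288c. The difference between the changes of GRX2 and GRX1 was -0.26 and was not tested. GRX8, a further dithiol glutaredoxin, was so close to background that a decrease could hardly be seen (5.61, 5.68 and 5.55 against 5.52, 5.52 and 5.59). Its log2 ratio was -0.07 (SE 0.05, 95% interval -0.19 to 0.04).

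The monothiol glutaredoxins did not all differ in the same direction. Of these, Grx3p and Grx4p take part in iron sensing in the nucleus and cytosol, Grx5p serves iron-sulfur cluster assembly in mitochondria, and Grx6p and Grx7p lie in the early secretory pathway. GRX3 was not measured on the wild type replicate 3 array. Its values were 9.34 and 9.37 in the wild type cultures against 9.60, 9.54 and 9.47 in 59A PDR8-S288c, which did not overlap and left a gap of 0.10. The log2 ratio was 0.18 (SE 0.06, 95% interval 0.05 to 0.32, unadjusted p = 0.0164, limma adjusted p = 0.168). Its paralogue GRX4, measured on all arrays, had a log2 ratio of -0.07 (SE 0.08) and overlapping strains, with 8.55, 8.62 and 8.83 against 8.65, 8.52 and 8.63. GRX7, also without wild type replicate 3, had 8.24 and 8.19 against 8.14, 8.12 and 8.07. The strains did not overlap, the gap was 0.0501, and the log2 ratio was -0.11 (SE 0.05, 95% interval -0.23 to 0.02, limma adjusted p = 0.332). GRX6 had 10.15, 10.23 and 10.24 in the wild type cultures against 10.12, 10.31 and 10.55 in 59A PDR8-S288c. The range of 0.433 within the latter was among the widest of the 36 genes, and the log2 ratio was 0.12 (SE 0.10, limma adjusted p = 0.578). Replicate 3 of 59A PDR8-S288c carried this value, which was 0.0064 without it and 0.22 without replicate 1. GRX5 had a log2 ratio of 0.02 (SE 0.07) with 2 wild type cultures.

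**Figure D3:**
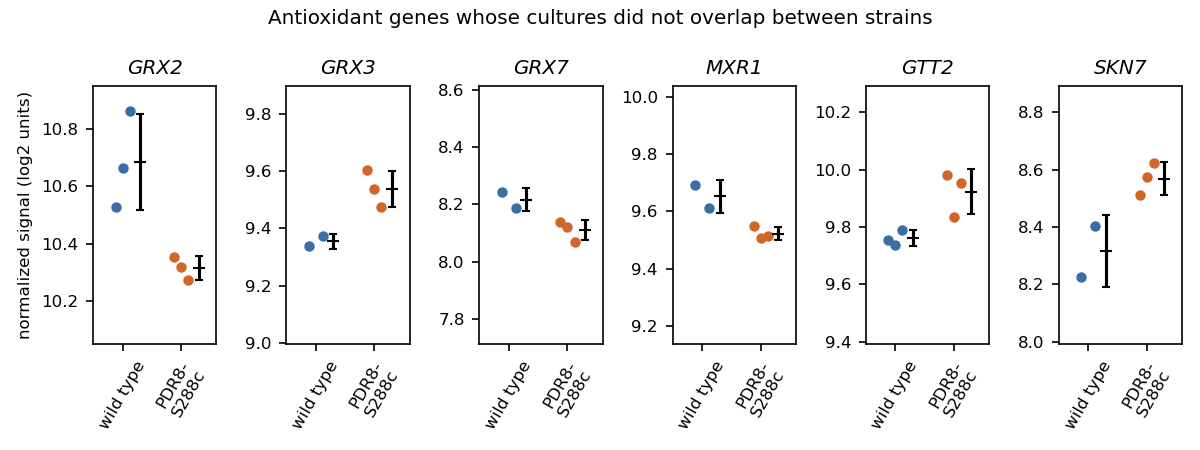
Log2 signal per culture of the 6 antioxidant genes whose strains did not overlap (GRX2, GRX3, GRX7, MXR1, GTT2 and SKN7), with the mean and SD of each strain; GRX3, GRX7, MXR1 and SKN7 have 2 wild type cultures. GRX2 lies lower in all 3 cultures of 59A PDR8-S288c, with a gap of 0.173 log2 units, and SKN7 higher, with a gap of 0.107.

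The glutathione peroxidase-like genes and the peroxiredoxins, which carry most of the peroxide reduction by thiols, had no member with separated strains. Over all features, the strains were separated in 24.6% with 3 cultures against 3 and in 35.0% with 3 against 2. These groups are small, and their share was not tested against that of all features. Hyr1p, also known as Gpx3p, is the peroxide sensor that oxidizes Yap1p. HYR1 had 10.22, 10.25 and 10.34 in the wild type cultures against 10.15, 10.16 and 10.24 in 59A PDR8-S288c, with a log2 ratio of -0.09 (SE 0.05, 95% interval -0.21 to 0.03, limma adjusted p = 0.413). GPX1 and GPX2, each with 2 wild type cultures, had log2 ratios of 0.07 (SE 0.09) and -0.06 (SE 0.05). SRX1 encodes sulfiredoxin, which repairs overoxidized peroxiredoxins, and it had 7.69, 7.99 and 7.78 in the wild type against 7.51, 7.61 and 7.74 in 59A PDR8-S288c. Replicate 3 of 59A PDR8-S288c lay above wild type replicate 1, and the log2 ratio was -0.20 (SE 0.09, 95% interval -0.41 to 0.01, limma adjusted p = 0.292).

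TSA1 and TSA2, the genes of cytosolic peroxiredoxins, had log2 ratios of -0.11 (SE 0.13) and -0.09 (SE 0.08). TSA1 was not measured on wild type replicate 3, and its values were 13.12 and 12.96 against 13.19, 12.81 and 12.80. The highest and the lowest of these 5 values both came from 59A PDR8-S288c. AHP1, whose product reduces alkyl hydroperoxides, had 14.74, 14.87 and 15.22 in the wild type cultures against 15.20, 14.77 and 14.91 in 59A PDR8-S288c. Each strain had 1 culture near 15.2, the wild type range was 0.478, and the strain means were nearly equal (log2 ratio 0.02, SE 0.14, 95% interval -0.32 to 0.36). PRX1, the mitochondrial peroxiredoxin, had a log2 ratio of 0.06 (SE 0.04), and DOT5, the nuclear peroxiredoxin with 2 wild type cultures, had -0.03 (SE 0.06).

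MXR1 encodes methionine sulfoxide reductase, which returns oxidized methionine to methionine. It was measured in 2 wild type cultures, at 9.69 and 9.61, and in 3 of 59A PDR8-S288c, at 9.55, 9.51 and 9.51. The strains did not overlap, but the gap was only 0.0637. The log2 ratio was -0.13 (SE 0.05, 95% interval -0.25 to -0.01, unadjusted p = 0.0425, limma adjusted p = 0.260).

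The genes of glutathione synthesis and reduction had values near 0. Gsh1p catalyzes the first and Gsh2p the last step of the synthesis, and Glr1p reduces the oxidized form. GSH1 had a log2 ratio of 0.08 (SE 0.09), GSH2 of -0.04 (SE 0.05) and GLR1 of 0.06 (SE 0.04). GSH1 varied more between cultures of a strain than between the strains, with 9.17, 9.08 and 8.88 against 9.00, 9.14 and 9.22. GLR1 was more even, with 8.52, 8.55 and 8.52 against 8.53, 8.61 and 8.61. The glutathione transferases attach glutathione to other molecules. GTT2 had 9.76, 9.74 and 9.79 in the wild type cultures against 9.98, 9.83 and 9.96 in 59A PDR8-S288c, which did not overlap and left a gap of 0.0439. Its log2 ratio was 0.16 (SE 0.05, 95% interval 0.04 to 0.28, unadjusted p = 0.0147, limma adjusted p = 0.161). GTT1 overlapped between the strains, with 12.61, 12.57 and 12.40 against 12.24, 12.57 and 12.64 and a log2 ratio of -0.04 (SE 0.11).

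Both transcription factor genes had positive values, and that of SKN7 was the largest of the 36. SKN7 encodes a response regulator that acts with Yap1p at peroxide-responsive promoters. It was measured in 2 wild type cultures, at 8.23 and 8.40, and in 3 cultures of 59A PDR8-S288c, at 8.51, 8.57 and 8.62. All 3 lay above the wild type, with a gap of 0.107, and the log2 ratio was 0.25 (SE 0.07, 95% interval 0.09 to 0.42, unadjusted p = 0.0095, limma adjusted p = 0.131). The pair of wild type cultures differed by 0.178, and the log2 ratio was 0.17 without wild type replicate 1 and 0.34 without replicate 2. YAP1, the main activator of antioxidant genes, had 9.81 and 9.78 against 9.80, 9.96 and 10.08. Replicate 1 of 59A PDR8-S288c lay between the wild type cultures, and the log2 ratio was 0.15 (SE 0.09, 95% interval -0.05 to 0.36, limma adjusted p = 0.401). Without replicate 3 of 59A PDR8-S288c it was 0.08, and without replicate 1 it was 0.23.

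Counted over the whole set, the strains did not overlap in 2 of the 26 genes measured on all arrays (7.69%, GRX2 and GTT2), against 24.6% of all features measured on all arrays. Among the 10 genes without wild type replicate 3, they did not overlap in 4 (40.0%, GRX3, GRX7, MXR1 and SKN7), against 35.0% of all features of this kind. Both directions occurred in each. The comparison of 3 cultures with 2 leaves the strains apart more often by its construction, so 4 of the 6 separated genes rest on it.

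The wild type replicate 3 array was the highest or the lowest of the 6 in 16 of the 26 complete genes (61.5%), close to its 58.2% over all features. It was highest in 9 and lowest in 7. The other arrays did so in 4 (wild type replicate 1), 9 (wild type replicate 2), 11, 3 and 9 genes (replicates 1, 2 and 3 of 59A PDR8-S288c). Without this array, the median log2 ratio of the 36 genes was -0.018, against -0.006 with it, and no gene passed the test in that fit. The median hides shifts of single genes in both directions. Leaving the array out moved the log2 ratio by -0.14 in CTA1, -0.12 in SOD1, 0.14 in AHP1 and 0.09 in GRX2. In the 10 genes without a value on the array it could not move.

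**Figure D4:**
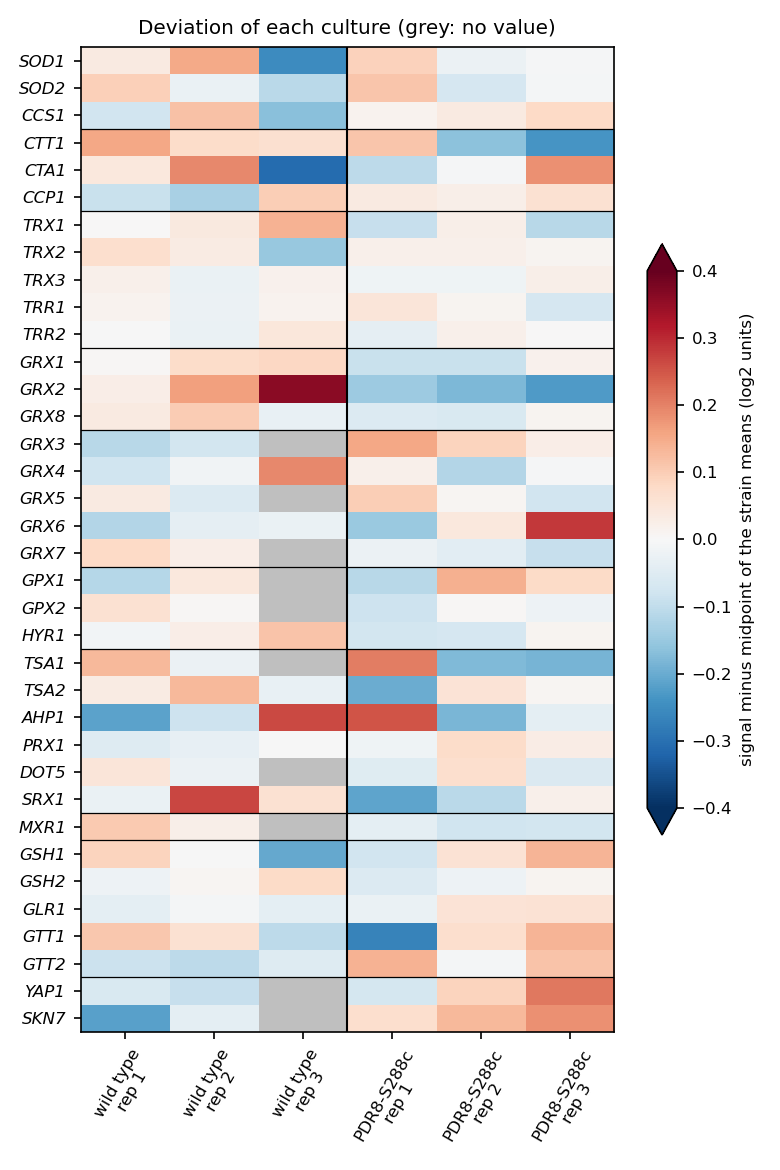
Deviation of each culture from the midpoint of the strain means, in log2 units, for the 36 antioxidant genes by role; colors stop at 0.4 on either side of 0 and grey marks the 10 genes without a value on the wild type replicate 3 array. That column holds the highest or the lowest value in 16 of 26 genes, and GRX2 lies above 0 in all wild type and below 0 in all 59A PDR8-S288c cultures.

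The sign of 15 of the 36 differences depended on the arrays or the setting used. In 21 of the 36 genes the log2 ratio kept its sign in every alternative run for it, up to 16 per gene. Some alternatives could not turn a sign. The trended robust variance, the exclusion of features and the averaging of probes left the log2 ratios of these genes unchanged. So did a replicate block in genes measured on all arrays, and leaving out wild type replicate 3 in genes without a value on it. The 6 genes with separated strains and the genes CCS1, CTT1, TRX1, HYR1, SRX1 and YAP1 were among the 21 genes that kept their sign. In the 6 separated genes, leaving out 1 array cannot turn the sign, so those runs say nothing more about them. When 1 array was left out, the values ran from -0.30 to -0.12 in CTT1, from -0.16 to -0.08 in TRX1, from -0.11 to -0.05 in HYR1 and from -0.26 to -0.12 in SRX1. The 15 genes whose sign changed, which include SOD1, CTA1, AHP1 and TRX2, had a value on either side of 0 in different alternatives. A kept sign does not settle the direction, as the alternatives draw on the same arrays. The interval of the main limma fit covered 0 in CCS1, CTT1, TRX1, HYR1, SRX1 and YAP1. Among the separated genes it covered 0 in GRX7 but not in GRX2, GRX3, MXR1, GTT2 and SKN7.

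Several of the genes are paralogues. Their log2 ratios were -0.12 and 0.03 for TRX1 and TRX2, -0.11 and -0.37 for GRX1 and GRX2, 0.18 and -0.07 for GRX3 and GRX4, -0.11 and -0.09 for TSA1 and TSA2, and -0.01 for both TRR1 and TRR2. For GPX1, GPX2 and HYR1 they were 0.07, -0.06 and -0.09. GRX6 and GRX7 had 0.12 and -0.11, and the transferase genes GTT1 and GTT2 had -0.04 and 0.16. None of these differences between genes of a pair or group was tested, and how far a probe also reads the RNA of a paralogue was not tested either.

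Outside the 36 genes, 43 genes of the same biology were listed by function, again with earlier results of these data known, and 40 of them have a named probe. With the same threshold, 2 had higher and 1 had lower expression in 59A PDR8-S288c, and 37 did not pass, where 1.54% of all features would be 0.615 of 40. The median log2 ratio of the 40 was -0.002, with 20 above and 20 below 0. MSN4 encodes a general stress transcription factor and was higher, with 9.87, 9.74 and 9.79 in the wild type cultures against 10.19, 10.08 and 10.16 in 59A PDR8-S288c (log2 ratio 0.34, SE 0.05, limma adjusted p = 0.0347). Its paralogue MSN2 had 0.10 (SE 0.06) and did not pass. TAL1, the transaldolase of the pentose phosphate pathway, was higher, with 11.39 and 11.39 in 2 wild type cultures and 11.70, 11.79 and 11.71 in 59A PDR8-S288c (log2 ratio 0.34, SE 0.05, limma adjusted p = 0.0394). HBN1, a homologue of bacterial nitroreductases, was lower, with 10.37, 10.43 and 10.48 against 10.14, 10.08 and 9.97 (log2 ratio -0.36, SE 0.06, limma adjusted p = 0.0352). In each of these genes the strains did not overlap, but genes picked by a low p tend to be separated. The separation therefore adds nothing to the calls. Of the outside genes, 6 of 25 measured on all arrays were separated (24.0%), and 6 of 15 without wild type replicate 3 (40.0%). The shares over all features were 24.6% and 35.0%. The calls of MSN4 and HBN1 were lost whichever array was left out. That of TAL1 was lost without any 1 array of 59A PDR8-S288c and kept without wild type replicate 3. Without wild type replicate 1 or 2, TAL1 has only 1 wild type culture. The calls over all features also fell in these fits, from 96 to between 3 and 90. With the position on the slide in the model, all 3 were also lost (adjusted p of 0.369 for MSN4, 0.326 for TAL1 and 0.373 for HBN1 from limma). The log2 ratios moved little when 1 array was left out, from 0.32 to 0.38 in MSN4, from 0.31 to 0.36 in TAL1 and from -0.40 to -0.32 in HBN1.

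By function, 0 of 10 genes of glutathione transfer, breakdown and transport passed, and the largest differences were those of DUG1, a peptidase that cleaves the dipeptide left from glutathione (-0.18, SE 0.05, limma adjusted p = 0.119), and ECM38, the gamma-glutamyltranspeptidase (0.17, SE 0.05, limma adjusted p = 0.135). Of 14 other oxidant-linked enzymes and exporters only HBN1 passed, of 6 further regulators only MSN4, and of 10 genes listed under NADPH supply only TAL1. The share of 1.54% of all features would be 0.215 of 14, 0.0922 of 6 and 0.154 of 10. As given above, these calls were lost in most fits that left out 1 array and with the slide position in the model.

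**Figure D5:**
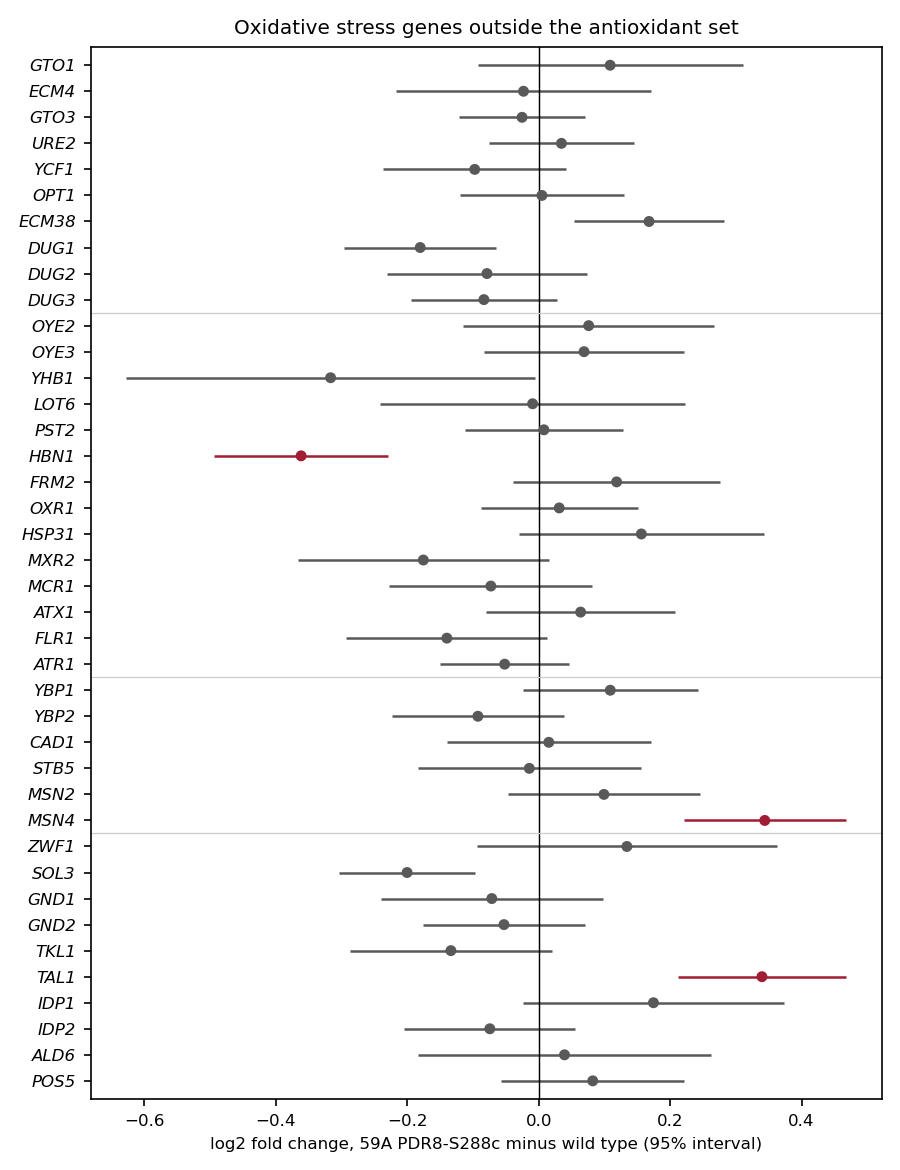
Log2 ratio (log2 fold change, 59A PDR8-S288c minus wild type) with the 95% interval of the limma fit for the 40 measured genes of related function outside the 36; red marks an adjusted p under 0.05. MSN4 and TAL1 lie at 0.34 and HBN1 at -0.36, and the other 37 did not pass.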

How the data were processed

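The authors read the arrays with GenePix, took the median intensity of each spot, quantile-normalized it with limma under R 2.13.1 and deposited the result as log2. Their methods describe this step for the whole array data set, and it is not stated that these 6 arrays belonged to it. The values were used as deposited. Of 6271 probes, 5220 have 1 gene symbol and 1051 have none here. Where a gene had more than 1 probe (22 genes), its brightest probe stood for it, which left 6248 features. A linear model per feature with moderated variance, without trend, robust setting or block, was fitted with limma 3.58.1 under R 4.3.3, with Benjamini-Hochberg adjustment over all features. The fit was tested on simulated data. The labels call the arrays of a strain biological replicates.

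The 36 genes and all lists were chosen with earlier results of these data known. Values per culture were to be given for each gene past a p of 0.05, adjusted or not, for the gene with the largest difference in any other role group, for genes whose strains do not overlap and for the 3 widest ranges within a strain. Paralogues were set side by side, and in the outside lists the genes past 0.05, or otherwise the 2 largest differences, were named. The values of other genes were added after they had been seen. In 59A PDR8-S288c, replicates 1 and 2 have exchanged numbers in their descriptions, and the titles were used. All arrays lay on slide 1, in subarrays 8, 1 and 2 (wild type replicates 1, 2 and 3) and 6, 7 and 5 (the other strain). GCG1, GEX1 and GEX2 of the outside lists were not matched to a named probe. Each array was left out in turn. Other alternatives were array weights, a trended robust variance, centring on the median, repeated quantile normalization, exclusion of dim features (mean under 6.3 in both strains) or of features without all 6 values, averaging of probes, a replicate block and the position on the slide. Plots were drawn with matplotlib 3.10.9.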

Additional observations from a re-analysis of the deposited data

How the results depend on the processing

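The count of 0 antioxidant genes called was kept at an adjusted p under 0.01 and in all alternatives at 0.05 except array weights, where 1 gene (GRX2, log2 ratio -0.31, limma adjusted p = 0.0451) passed. At an unadjusted p under 0.05 the count was 5. The number of all features called moved far more, from 96 to 208 with array weights, 152 with a trended robust variance, 6 with the slide position as a covariate and between 3 and 90 when 1 array was left out. The median log2 ratio of the 36 genes ran from -0.025 to 0.0041. For scale, the median signal of the 26 genes measured on all 6 arrays had an SD of 0.0533 between cultures of a strain. That SD is of a signal and not of a log2 ratio. Whether the replicate numbers pair the cultures was not tested. Deviations of same-numbered cultures correlated at 0.17, 0.34 and -0.43 by the titles, and at -0.05, -0.69 and -0.43 by the descriptions. With the replicate number as a block, 19 features were called by the titles and 3 by the descriptions, none of the 36 genes passed, and the count in the outside lists went from 3 to 0. That count was 0 to 1 when 1 array was left out.

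The smallest value of GRX2 was -0.21, with the slide position in the model. That model sets the strains against each other within subarrays 5 to 8, where wild type replicate 1 is the only wild type culture. GRX2 kept its sign in every alternative, and the cause of the changes of sign in other genes was not tested. With array weights the sign turned in CTA1 (-0.0146), GRX5 (-0.0048), SOD1 (-0.0423), SOD2 (-0.0313), TRX2 (-0.0153) and TRR2 (0.0069). With the slide position it turned in CTA1 (-0.0161), GRX4 (0.0475), GRX5 (-0.0274), GSH1 (-0.0512), GSH2 (0.0010), SOD1 (-0.0139), SOD2 (-0.0846) and TRX2 (-0.0505). With a second quantile normalization it turned in TRR1 (0.00035) and TRX3 (0.0106). When each array was left out in turn, the values ranged in AHP1 from -0.10 to 0.16, CTA1 from -0.0915 to 0.16, DOT5 from -0.066 to 0.0096, GPX1 from -0.0070 to 0.15, GRX4 from -0.12 to 0.0134, GRX5 from -0.0274 to 0.0628, GSH1 from -0.0061 to 0.14, GTT1 from -0.12 to 0.0801, SOD1 from -0.0715 to 0.13, SOD2 from -0.0245 to 0.0787, TRR1 from -0.0308 to 0.0270, TRR2 from -0.0277 to 0.0093, TRX2 from -0.0326 to 0.0765 and TRX3 from -0.0222 to 0.0013. Signal over background limits only GRX8.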
